A study of Mus musculus with 8 samples.

Results

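The genes described are 7 that mark motor neurons or carry out cholinergic transmission: the transcription factor genes Mnx1, Tbx20, Onecut1 and Onecut2, and the cholinergic genes Chat, Slc18a3 and Slc5a7. They were chosen by name, as every non-control probe whose gene name on the array equals one of the 7. This gave 10 probes of 55664, and all 7 genes were among the 28940 genes tested. The study compared mouse embryos of the C57BL/6 strain at stage E10.5 in which both copies of the Geminin gene were floxed and cre was present (written fl/fl; cre/o in the labels, here "mutant") with wild-type embryos. Spinal neural tube and the paraxial tissue beside it were cut out separately with a laser. RNA of each piece was measured on a 1-colour Agilent array. The 4 groups were mutant neural tube, wild-type neural tube, mutant paraxial tissue and wild-type paraxial tissue, with 2 arrays each, and each of the 2 mutant and 2 wild-type embryos gave both tissues. The labels name neither the cell type in which cre was active nor the axial level of the cut. Gmnn, the targeted gene, had a scaled log2 signal (log2 of the processed red-channel signal, each array brought to a common 75th percentile) of 12.11 and 11.80 in mutant neural tube, against 12.35 and 12.24 in wild-type neural tube, and of 11.42 and 11.39 in mutant paraxial tissue, against 12.20 and 11.88 in wild-type paraxial tissue. Mutants were lower without overlap in both tissues, by less than the test could call (limma adjusted p = 0.921 and 0.995), and a probe outside the deleted part would check nothing about the labels. Neural progenitor markers (12 measured of 12; mean of values centred on each gene) were at 0.73 to 0.83 in neural tube and at -1.38 to -0.19 in paraxial tissue, while somite markers (13 measured of 14) were at -2.23 to -0.47 in neural tube and at 0.96 to 1.84 in paraxial tissue, as the tissue labels have it.

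Motor neurons are the spinal cord cells whose axons leave the cord to drive muscle and autonomic ganglia. They arise ventrally from progenitors that express Olig2 and then turn on LIM homeobox factors and Mnx1, the homeobox gene also known as Hb9 that holds them in the motor neuron fate. They release acetylcholine: choline acetyltransferase, encoded by Chat, makes it from choline and acetyl-CoA, the vesicular transporter encoded by Slc18a3 loads it into vesicles, and the high-affinity transporter encoded by Slc5a7 takes choline back up. Slc18a3 lies inside the transcription unit of Chat, the 2 forming the cholinergic gene locus. Onecut1 and Onecut2 encode cut-homeodomain factors of newly born motor neurons and several spinal interneurons, and Tbx20 encodes a T-box factor of visceral and branchial motor neurons of the hindbrain, and of the heart.

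The probes decide which transcript end was read, so stretches of those on which the results turn are given here, each as 30 bases, 5′ to 3′, in the deposited array design annotated on mouse build mm9. Capitals mark AATAAA, the usual polyadenylation signal, or a GAAA repeat.
Mnx1, chr5:29799801-29799860, minus strand, last 30 of 60 bases: ccccagggtggagatggaatgtaaAATAAA
Slc18a3, chr14:33275627-33275686, minus strand, last 30 bases: ggcctgaattAATAAAccatatctgtctga
Chat, chr14:33221421-33221480, minus strand, last 30 bases: gctattcaGAAAGAAAGAAAGAAAGAAAGA
Onecut1, chr9:74710921-74710980, plus strand, first 30 bases: cttcggtgaccggcgcgcaggtcagcaatg
Tbx20, chr9:24563177-24563236, minus strand, first 30 bases: agaattcaggacgttcatctttccagagac
Tbx20, chr9:24527750-24527809, minus strand, first 30 bases: gtagttggtttccagacaaaatacagatgt
Slc5a7, chr17:54413269-54413328, minus strand, first 30 bases: gtgaaatgatatgtcaacaagctatcagat
The Mnx1 and Slc18a3 probes hold AATAAA. The Chat probe ends in a run of GAAA units, which other transcripts can also carry. Of the 6 probes on the array with at least 4 such units in a row, the 5 others that were kept differed between tissues by -0.20 to 0.11 (log2) in mutants, and by -0.27 to 0.15 in wild type, while the Chat probe differed by 2.76 and 1.88. No annotation of mm9 was used here, so exons and untranslated regions are not given for the probes.

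Promoter sequence is shown for the 3 genes of the group that moved most closely together and have an entry in the RefSeq table, and for Mnx1, which stood apart from them. Each is the 250 bases before the annotated start on build GRCm38.p6, on the gene's strand. Capitals mark CANNTG, the E-box bound by proneural basic helix-loop-helix factors, and ATTA on either strand, the core of many homeodomain sites.
Slc18a3, chr14:32464851-32465100: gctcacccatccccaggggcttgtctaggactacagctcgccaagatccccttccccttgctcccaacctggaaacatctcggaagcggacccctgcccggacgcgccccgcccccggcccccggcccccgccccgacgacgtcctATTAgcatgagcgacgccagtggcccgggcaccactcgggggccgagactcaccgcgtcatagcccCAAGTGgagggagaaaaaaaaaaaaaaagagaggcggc
Chat, chr14:32465910-32466159: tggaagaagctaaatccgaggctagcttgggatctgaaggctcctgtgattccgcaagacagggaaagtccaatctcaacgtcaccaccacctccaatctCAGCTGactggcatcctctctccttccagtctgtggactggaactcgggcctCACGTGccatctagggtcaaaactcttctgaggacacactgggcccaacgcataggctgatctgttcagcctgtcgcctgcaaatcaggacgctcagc
Onecut1, chr9:74861671-74861920: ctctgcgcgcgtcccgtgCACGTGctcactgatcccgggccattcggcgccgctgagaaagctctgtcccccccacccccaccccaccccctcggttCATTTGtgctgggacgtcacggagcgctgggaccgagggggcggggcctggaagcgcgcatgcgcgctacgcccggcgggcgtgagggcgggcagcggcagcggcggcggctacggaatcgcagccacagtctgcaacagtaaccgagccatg
Mnx1, chr5:29478471-29478720: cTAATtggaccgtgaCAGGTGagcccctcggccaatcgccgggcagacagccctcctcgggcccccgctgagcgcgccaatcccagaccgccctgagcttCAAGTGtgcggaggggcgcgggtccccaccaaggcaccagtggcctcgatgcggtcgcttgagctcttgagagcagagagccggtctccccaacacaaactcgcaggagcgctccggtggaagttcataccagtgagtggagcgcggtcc
The Slc18a3 stretch lies within the Chat gene, which spans 32408203 to 32465909 on chromosome 14 of that build. Of the 6 members with an entry, 5 hold at least 1 CANNTG in this window, as do 66.2% of 32851 mouse promoters. ATTA or TAAT is present in 3 of the 6 members and in 54.9% of promoters. These matches are letters in a window, not sites.

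All levels are scaled log2 signals, and the level of one probe is not comparable with that of another. Between 71.5% and 77.9% of probes on an array were well above background by the scanner software's own test. Of the 10 member probes, 8 passed the filter, which asked for both arrays of at least 1 group to be well above background. Tbx20, Onecut1, Onecut2 and Slc18a3 were measured on all 8 arrays. Mnx1 was above background on 3 arrays and passed through wild-type neural tube alone, Chat on 5 arrays through both neural tube groups, and Slc5a7 on 5 arrays through both wild-type groups. The genes that passed through 1 tissue or genotype had to differ there, so their counts are read with that in mind.

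Within mutants, 6 of the 7 genes stood higher on both neural tube arrays than on both paraxial arrays, Slc5a7 being the exception, and 4 of them passed the test over all genes: Onecut1, Onecut2, Chat and Slc18a3. Genes called higher in neural tube made up 2.68% of the 28940 tested in mutants. In wild-type embryos 5 of the 7 stood higher without overlap, and Mnx1 alone passed, where 0.767% of all genes were called higher. Averaged over both genotypes, 5 of 7 passed (Mnx1, Onecut1, Onecut2, Chat and Slc18a3) against 5.94% of all genes. None was called lower in neural tube. Mnx1 and Chat had entered the test only through neural tube groups, so their calls do not stand apart from the filter. Of the members measured on all 8 arrays, Onecut1, Onecut2 and Slc18a3 passed in mutants and on average. Tbx20 did not pass, and none of these genes passed in wild type. Groups that do not overlap, with neural tube higher, were found for 16.6% of all genes in mutants and 18.3% in wild type. The median difference of the 7 was 2.21 (log2) in mutants and 1.44 in wild type, against medians over all genes of -0.03 and 0.0048. With the genes not well above background in paraxial tissue set at their bound, the medians were 1.43 in mutants and 1.44 in wild type. The count of 4 in mutants was 0 when any 1 of the 4 mutant arrays was left out, a comparison then resting on a single mutant embryo's array in 1 tissue, and 5 without either wild-type neural tube array. Fewer cells of a type and less RNA per cell cannot be told apart in these bulk samples, here or for any gene below.

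**Figure D1:**
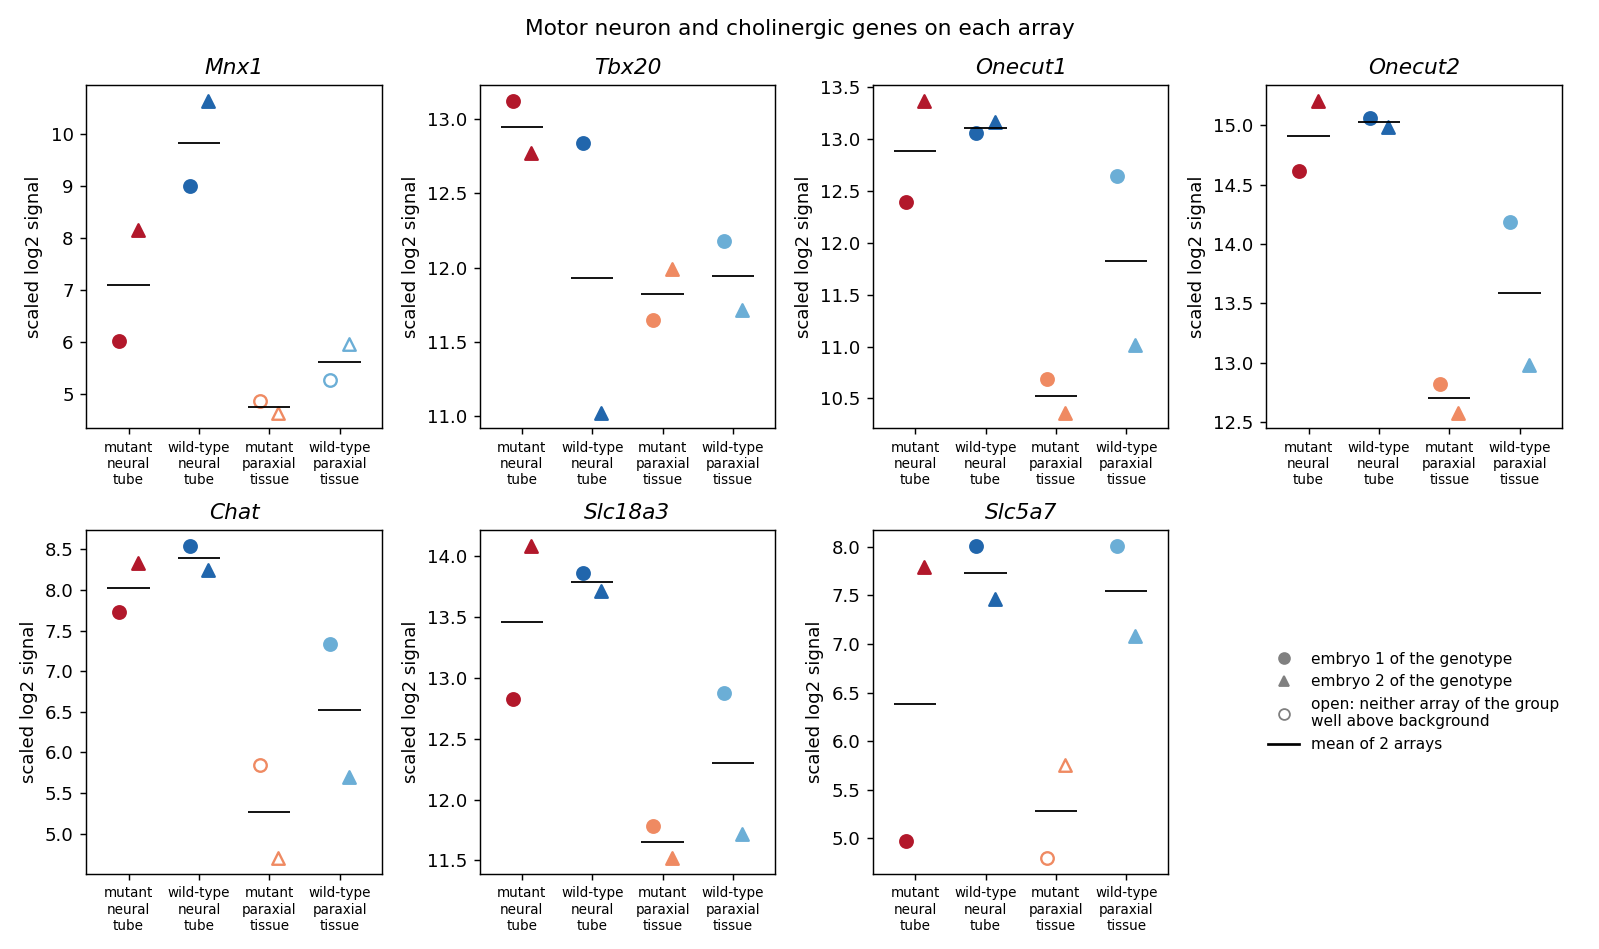
Scaled log2 signal (vertical axis, a separate scale in each panel) of the 7 genes on each of the 8 arrays, by group, with circles and triangles for embryos 1 and 2 of a genotype and a bar at the mean of 2 arrays; open symbols are groups with neither array well above background. Onecut1, Onecut2, Chat and Slc18a3 show similar shapes, Mnx1 is highest in wild-type neural tube, and Tbx20 is lowest on the second wild-type neural tube array.

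Mnx1 was the gene with the greatest tissue difference of the 7 in wild type. Its scaled log2 signal was 6.03 and 8.16 in mutant neural tube, against 9.00 and 10.64 in wild-type neural tube. It was 4.88 and 4.65 in mutant paraxial tissue, against 5.28 and 5.97 in wild-type paraxial tissue, none of these 4 well above background. All 4 neural tube values thus lay above all 4 paraxial values, and both mutant neural tube values lay below both wild-type ones. The first mutant neural tube array was itself not well above background.

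Wild-type neural tube exceeded wild-type paraxial tissue at least 9.56-fold in Mnx1 (fitted difference 4.20 ± 0.58, log2, SE; limma adjusted p = 0.0204), the bound setting the bright group's mean over the lowest signal well above background. With normexp background correction (offset 50) in place of the scanner's, the fitted difference was 1.88 (adjusted p = 0.0143). The bound thus holds for the scanner's correction only. That call was lost without the second wild-type neural tube array (adjusted p = 0.127) or the second wild-type paraxial array (adjusted p = 0.111), and without either wild-type embryo. In mutants the fitted difference was 2.33 ± 0.58 (adjusted p = 0.0673), or 1.09 with normexp (adjusted p = 0.0877), with 1 of the 2 neural tube arrays and both paraxial arrays not well above background, so no fold is given. The test of whether the tissue difference itself depended on genotype gave -1.87 ± 0.82 (adjusted p = 0.957).

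Mnx1 in mutant neural tube differed from wild-type neural tube by -2.73 ± 0.92 (log2, SE), with a 95% interval of -4.90 to -0.55 that is not adjusted for the number of genes, and an adjusted p of 0.921 (unadjusted p = 0.0210). The gene entered the test through wild-type neural tube, the only group with both arrays well above background. Groups that do not overlap with the mutant lower were found for 15.4% of all genes. No gene of 28940 passed here (0%), with 1050 at an unadjusted p under 0.05. Without the first mutant neural tube array the difference was -1.60, and without the second it was -3.85.

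The same 4 arrays measured 13 motor neuron progenitor and specification factors, of which 7 had a difference above 0 between mutant and wild-type neural tube and 0 passed the test. Those above 0 were Olig1, Olig2, Nkx6-1, Nkx6-2, Neurog2, Pax6 and Neurod4. Those below 0 were Isl1, Isl2, Lhx3, Lhx4, Onecut3 and Ebf2. Of 15 spinal interneuron markers measured, 1 was above 0 in this comparison (median -1.02), and 0 passed. Isl2, a LIM homeobox gene of postmitotic motor neurons, had 12.33 and 13.97 in mutant neural tube, against 13.77 and 13.98 in wild-type neural tube. Lhx3, a LIM homeobox gene of newly born and medial column motor neurons, had 11.18 and 12.19, against 11.80 and 11.94. Olig2, the motor neuron progenitor determinant, had 13.47 and 12.97, against 11.82 and 13.97. In each of the 3 the mutant values overlapped the wild-type ones. The differences were -0.72 ± 0.69 for Isl2 and -0.18 ± 0.76 for Lhx3 (adjusted p = 0.921 and 0.985). Isl1, a LIM homeobox gene needed for motor neurons to form, had 9.02 and 10.34 in mutant neural tube, against 9.68 and 11.54 in wild-type neural tube, again overlapping (-0.93 ± 1.12; adjusted p = 0.930). Lhx4, the close relative of Lhx3, had 11.59 and 12.10 in mutant neural tube, against 12.19 and 12.18 in wild-type neural tube, so like Mnx1 it was lower in mutants without overlap (-0.33 ± 0.74; adjusted p = 0.964).

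The Mnx1 order of the 4 neural tube arrays was also that of the Hox genes of paralogs 9 to 11, which mark posterior axial levels; this list was chosen after the values were seen. The mean of its 10 genes, each centred on its 8-array mean, was -2.87 and 0.27 in mutant neural tube, against 0.50 and 1.15 in wild-type neural tube. Hoxd10 had 6.23 and 11.83 in mutant neural tube, against 12.00 and 11.74 in wild-type neural tube, and Hoxa9 had 11.84 and 14.12, against 14.58 and 15.10. The paraxial arrays of the same embryos gave means of -1.05 and 0.54 for mutant embryos, against 0.39 and 1.07 for wild-type embryos, so the first mutant embryo was lowest in both tissues. All 10 differed below 0 between mutant and wild-type neural tube, with a median of -2.17, and 0 passed the test. The part of axial level in the Mnx1 result was not tested.

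**Figure D2:**
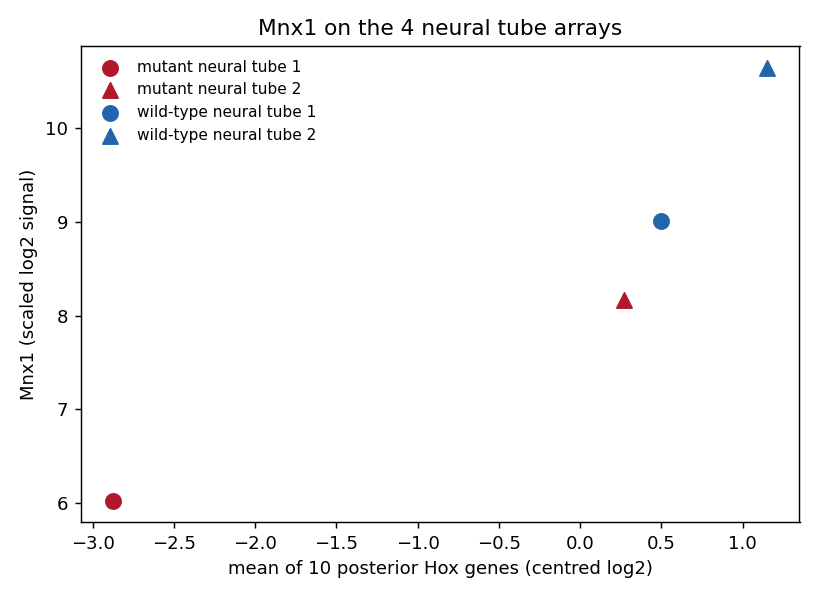
Mnx1 (vertical axis, scaled log2 signal) against the mean of 10 Hox genes of paralogs 9 to 11 (horizontal axis, centred log2 values) on the 4 neural tube arrays, mutants in red and wild type in blue. The first mutant array is lowest in both (6.03 and -2.87) and the second wild-type array highest in both (10.64 and 1.15).

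Of the 7 members, Tbx20 had the lowest correlation across the 8 arrays with the mean of the others (r = 0.20). The probe standing for the gene had 13.12 and 12.77 in mutant neural tube, against 12.84 and 11.02 in wild-type neural tube. In paraxial tissue it had 11.65 and 11.99 in the mutant embryos, against 12.18 and 11.71 in wild type. The second wild-type neural tube array, at 11.02, was the lowest of all 8, and the other 3 neural tube arrays were the highest. Neural tube exceeded paraxial tissue by 1.13 ± 0.38 (log2, SE; adjusted p = 0.157) in mutants and differed by -0.01 ± 0.38 (adjusted p = 0.990) in wild type. Between genotypes the difference was 1.02 ± 0.61 in neural tube (95% interval -0.43 to 2.46, unadjusted; adjusted p = 0.921) and -0.13 ± 0.61 in paraxial tissue (adjusted p = 0.996).

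A second Tbx20 probe, the one at 24527750, was also above background on all 8 arrays. It had 8.57 and 8.37 in mutant neural tube, against 7.88 and 7.20 in wild-type neural tube, and 7.56 and 8.12 in mutant paraxial tissue, against 7.62 and 7.05 in wild-type paraxial tissue. Both mutant neural tube values lay above both wild-type ones here, unlike at the first probe, with a difference of 0.92 ± 0.37 (adjusted p = 0.918 over all kept probes). A further probe, at chr9:24544715-24544774, was never well above background.

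Heart markers, of which 6 of 11 were measured, gave means of centred values of -1.08 and -0.49 in mutant neural tube, against -1.01 and -1.07 in wild-type neural tube, and 0.33 and 1.50 in mutant paraxial tissue, against 0.41 and 1.40 in wild-type paraxial tissue. The measured markers did not run alike: Myh7, a myosin gene of heart and slow muscle, was higher on every paraxial array (11.75 to 13.95) than on every neural tube array (9.55 to 10.51), while Nppa, the atrial natriuretic peptide gene, had 9.85 to 10.75 in paraxial tissue and 10.25 to 10.93 in neural tube. Nkx2-5, Gata4, Tbx5, Hand1 and Myl7 were not among the genes tested, and the part of heart tissue in the Tbx20 values was not tested.

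The second wild-type neural tube array, lowest for Tbx20, had the highest mean of the posterior Hox genes. The part of axial level in the Tbx20 values was not tested.

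Onecut1 and Onecut2 were the members nearest to each other, with a Pearson correlation of 0.99 over the 8 arrays, which share embryos in pairs. Onecut1 had 12.39 and 13.37 in mutant neural tube, against 13.05 and 13.17 in wild-type neural tube. It had 10.69 and 10.36 in mutant paraxial tissue, against 12.64 and 11.01 in wild-type paraxial tissue. The neural tube groups overlapped, while both mutant paraxial values lay below both wild-type ones. Neural tube exceeded paraxial tissue by 2.36 ± 0.46 (log2, SE; adjusted p = 0.0348) in mutants and by 1.29 ± 0.46 (adjusted p = 0.211) in wild type.

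Onecut2 had 14.61 and 15.21 in mutant neural tube, against 15.06 and 14.99 in wild-type neural tube. It had 12.82 and 12.58 in mutant paraxial tissue, against 14.19 and 12.98 in wild-type paraxial tissue. As for Onecut1, the first wild-type paraxial array was the highest of the paraxial arrays. The tissue difference was 2.21 ± 0.32 (adjusted p = 0.0163) in mutants and 1.44 ± 0.32 (adjusted p = 0.0741) in wild type. The difference of these 2 tissue differences was 0.77 ± 0.46 for Onecut2 (adjusted p = 0.960) and 1.07 ± 0.65 for Onecut1 (adjusted p = 0.962), so a call in mutants alone does not show a dependence on genotype. Onecut3, the remaining gene of the family, was above background on 3 arrays, with 4.94 and 8.73 in mutant neural tube, against 7.84 and 7.83 in wild-type neural tube.

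Among the cholinergic genes, Chat and Slc18a3 behaved alike and Slc5a7 did not. Chat had 7.73 and 8.33 in mutant neural tube, against 8.55 and 8.25 in wild-type neural tube. It had 5.84 and 4.70 in mutant paraxial tissue, neither well above background, against 7.34 and 5.70 in wild-type paraxial tissue, where 1 of 2 arrays was. Neural tube exceeded paraxial tissue at least 2.69-fold in mutants (fitted 2.76 ± 0.48, log2, SE; adjusted p = 0.0250). With normexp the fitted difference was 0.845 (adjusted p = 0.0422), so this bound, too, holds for the scanner's correction only. In wild type the difference was 1.88 ± 0.48 (adjusted p = 0.100), or 0.51 with normexp (adjusted p = 0.183).

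Slc18a3 had 12.83 and 14.08 in mutant neural tube, against 13.86 and 13.71 in wild-type neural tube. It had 11.78 and 11.52 in mutant paraxial tissue, against 12.87 and 11.72 in wild-type paraxial tissue. Each neural tube array was above both paraxial arrays of its genotype, with the tissue difference at 1.81 ± 0.40 (adjusted p = 0.0495) in mutants, just inside the threshold, and 1.49 ± 0.40 (adjusted p = 0.115) in wild type. Over the 8 arrays Chat and Slc18a3 had a Pearson correlation of 0.96, and Slc18a3 had 0.98 with Onecut2.

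Slc5a7 had 4.97 and 7.79 in mutant neural tube, against 8.01 and 7.46 in wild-type neural tube. It had 4.80 and 5.76 in mutant paraxial tissue, neither well above background, against 8.01 and 7.09 in wild-type paraxial tissue. In wild type the tissues overlapped (neural tube minus paraxial tissue 0.19 ± 0.54, 95% interval -1.10 to 1.47; adjusted p = 0.897), and the low values were the first mutant neural tube array and both mutant paraxial arrays. In paraxial tissue mutants were at least 1.92-fold lower (fitted -2.27 ± 0.86, log2, SE; adjusted p = 0.995, unadjusted p = 0.0340). With normexp that difference was -0.36 (adjusted p = 0.999), so the bound holds for the scanner's correction only. The gene had entered the test through the wild-type groups, the only ones with both arrays well above background. In neural tube the difference was -1.35 ± 0.86 (adjusted p = 0.921). The other Slc5a7 probe was never well above background, so the gene rests on 1 dim probe.

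Between genotypes no member passed the test in either tissue, nor did any gene of the array. In neural tube, Onecut1, Onecut2, Chat and Slc18a3 differed by -0.37 to -0.11 (log2), with standard errors of 0.52 to 0.76. The 95% interval of the Onecut2 difference was -1.33 to 1.11, and that of the Chat difference -2.16 to 1.43, so changes of that size are not excluded by these arrays. In paraxial tissue all 7 differences were below 0, with a median of -0.89 against 0.03 over all genes. Mnx1 was dim in both of these groups, and Chat and Slc5a7 in the mutant one. For Tbx20, Onecut1, Onecut2 and Slc18a3, measured on all 8 arrays, the paraxial differences ran from -1.30 (Onecut1) to -0.13 (Tbx20). Differentiated neuron markers had a median of -0.92 there, with 4 of 20 above 0. Lists of other cell types went both ways in the same comparison, with 0 called. Above 0 were 13 of 13 epithelial markers (median 0.73), 9 of 9 endothelial markers (median 0.61) and 7 of 7 erythroid markers (median 0.78). So were 8 of 8 notochord, foregut and liver markers (median 0.69). Mostly below 0 were somite markers (4 of 13 above 0, median -0.38) and heart markers (1 of 6, median -0.39). The same held for neural crest markers (2 of 6, median -0.22) and genes of the muscle side of the neuromuscular junction (2 of 7, median -0.97). Dorsal root ganglion markers (1 of 10 above 0, median -1.28) and neural progenitor markers (1 of 12, median -0.23) were also mostly below 0. Spinal interneuron markers were split (7 of 15 above 0, median -0.37). The part of these cell types in the members' differences was not tested. Onecut1, Onecut2 and Slc5a7 were lower in mutant paraxial tissue without overlap, as were 14.7% of all genes, and 0% of genes passed (971 at an unadjusted p under 0.05). Mnx1 was not well above background on any paraxial array, so its order there and a fold are not given.

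**Figure D3:**
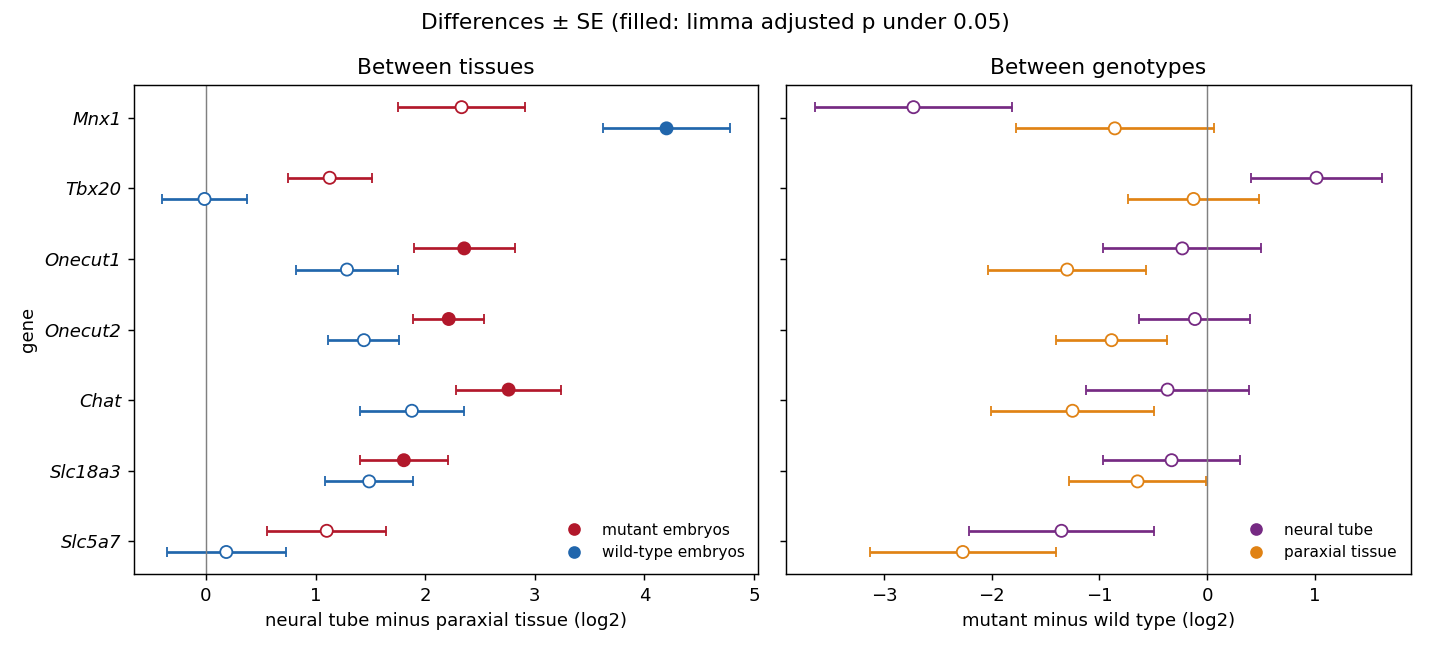
Fitted log2 differences (horizontal axis) with standard errors for the 7 genes: neural tube minus paraxial tissue on the left for mutant (red) and wild-type (blue) embryos, and mutant minus wild type on the right for neural tube (purple) and paraxial tissue (orange). Filled points passed a limma adjusted p of 0.05: Onecut1, Onecut2, Chat and Slc18a3 in mutants and Mnx1 in wild type, with none on the right.

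Neuron markers moved with the members in the paraxial arrays. The mean of 20 differentiated neuron markers, each centred on its 8-array mean, was -0.99 and -0.85 in mutant paraxial tissue, against 0.42 and -0.67 in wild-type paraxial tissue. The mean of the 7 members was -1.32 and -1.45 in the mutant pair, against 0.11 and -0.79 in the wild-type pair. Dorsal root ganglion markers (10 measured of 12, one of them, Isl1, also a motor neuron gene) gave -0.57 and -0.97, against 0.92 and -0.35. The first wild-type paraxial array was highest in all 3. In neural tube the neuron marker mean was -0.24 and 0.79 on the mutant arrays, against 0.86 and 0.67 on the wild-type arrays, and the member mean was -0.0032 and 1.14 on the mutant arrays, against 1.24 and 1.08, the first mutant array being lowest in both.

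The log2 of the summed neuron marker signal ran from 19.13 to 19.47 in mutant neural tube, against 19.21 to 19.56 in wild-type neural tube, and from 19.04 to 19.12 in mutant paraxial tissue, against 18.90 to 19.21 in wild-type paraxial tissue. This sum adds signals of different probes, so the brightest probes weigh most in it. The brightest were Snap25, at 17.49 to 18.28 over the 8 arrays, and Nhlh1, at 16.83 to 17.21. The near equality of the sums therefore does not show that the tissues held equal neuron content. Of the 20 neuron markers, 4 were called higher in neural tube in mutants, 0 in wild type and 9 on average. The shares of all genes were 2.68%, 0.767% and 5.94%. Between genotypes 3 of 20 were above 0 in neural tube and 4 of 20 in paraxial tissue, and 0 were called. Without the first wild-type paraxial array, 4 members passed in wild type in place of 1. The part of neuron content in the members' differences was not tested.

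**Figure D4:**
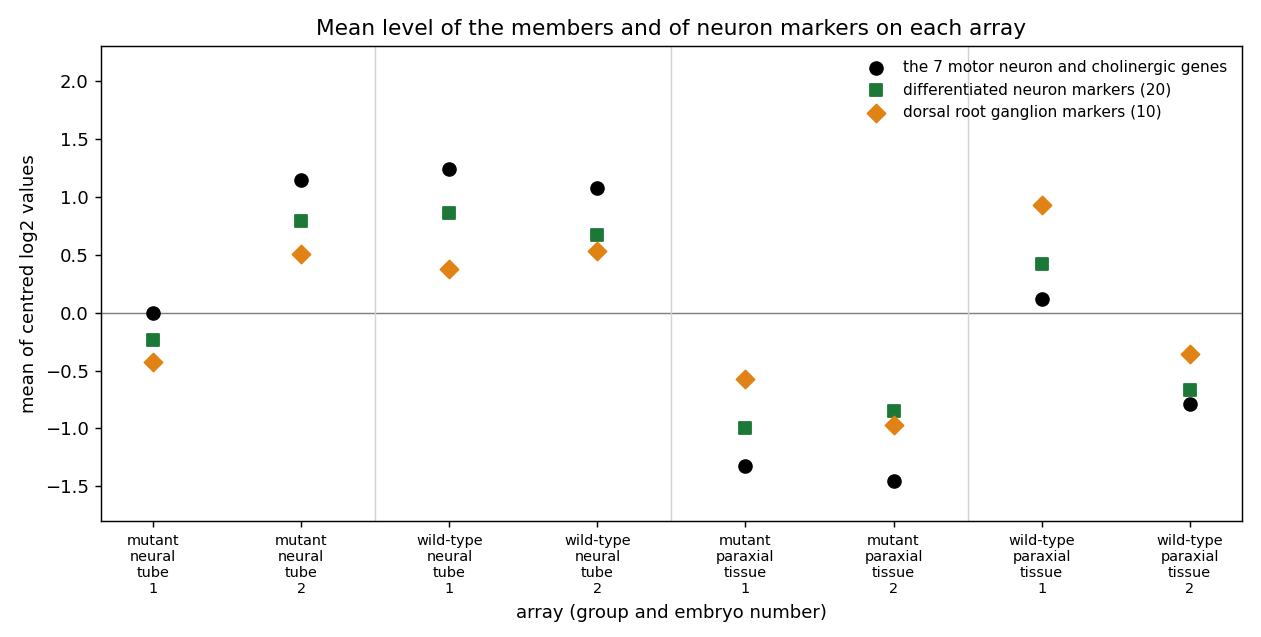
Mean of centred log2 values (vertical axis) of the 7 motor neuron and cholinergic genes, 20 differentiated neuron markers and 10 dorsal root ganglion markers on each of the 8 arrays (horizontal axis). The first wild-type paraxial array is above the other 3 paraxial arrays for all 3 sets, and the first mutant neural tube array is below the other 3 neural tube arrays.

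The genes that specify motor neurons followed the tissue difference of the members. Of 13 such factors, 8 were called higher in neural tube in mutants and 2 in wild type, with 0 lower, and medians of 2.06 and 1.94 (log2). Of all genes, 2.68% and 0.767% were called higher. Nkx6-2, called in mutants, was well above background on 4 arrays, none of them paraxial. Its call therefore does not stand apart from the filter. Of 12 neural progenitor markers, which share Pax6 with this list, 11 were called higher in mutants and 2 in wild type. Such calls were thus not particular to the genes that specify motor neurons. Nkx6-1, a homeobox gene of ventral progenitors, was higher by 2.06 ± 0.29 (adjusted p = 0.0155) in mutants and by 2.40 ± 0.29 (adjusted p = 0.0154) in wild type. Pax6, a paired-box gene of progenitors, was higher by 2.99 ± 0.43 (adjusted p = 0.0158) in mutants, and Neurod4, a basic helix-loop-helix factor of early neurons, by 1.75 ± 0.31 (adjusted p = 0.0274). Between genotypes 0 of 13 passed in either tissue, with medians of 0.08 in neural tube and -0.42 in paraxial tissue.

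The genes that divide motor neurons into columns and pools were called in both directions. Of 16, 0 were called higher and 3 lower in neural tube in mutants, and likewise in wild type, against 3.17% and 1.68% of all genes called lower. Averaged over genotypes, 2 were higher and 6 lower, against 5.94% and 6.01% of all genes. The 3 lower genes in each genotype were Tbx2, by -3.32 ± 0.28 (adjusted p = 0.00941) in mutants, and the ETS factor genes Etv4 and Etv5. These 3 are also active in mesenchyme outside the nervous system. Phox2a had 11.19 and 10.62 in mutant neural tube, against 10.68 and 10.33 in wild-type neural tube. Of 24 genes of motor axons, 1 passed in mutants, the chemokine receptor gene Cxcr4 (1.75 ± 0.28; adjusted p = 0.0208), and 0 in wild type. Over all genes 2.68% were called higher in mutants and 0.767% in wild type, so these counts are not read as a result about motor axon genes.

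Genes of acetylcholine breakdown and reception were compared between the tissues in the same way. In mutants 2.68% of all genes were called higher in neural tube and 3.17% lower. In wild type the shares were 0.767% and 1.68%. Of 14 acetylcholine enzymes, neuronal receptors and related genes measured, 3 were called higher in neural tube in mutants: Chrna4 by 1.65 ± 0.24 (adjusted p = 0.0163), Chrna7 by 2.05 ± 0.33 (adjusted p = 0.0211), and Chrna3 at least 2.25-fold (adjusted p = 0.0254), all nicotinic receptor subunits of neurons. In wild type Chrna3 alone passed, at least 3.40-fold higher (adjusted p = 0.0448). Chrna3 was well above background on 4 arrays, none of them paraxial. It entered the test only through neural tube groups, so its calls do not stand apart from the filter. Ache, which encodes the enzyme that breaks acetylcholine down, averaged over genotypes, was lower in neural tube by -1.07 ± 0.23 (adjusted p = 0.0273), opposite to Chat. Of 7 genes of the muscle side of the junction, 4 were called lower in wild-type neural tube, the muscle receptor subunits Chrna1, Chrnb1, Chrnd and Chrng, by -2.93 to -2.17. In mutants 0 of the 7 passed, Chrna1 differing by -1.79 ± 0.51 (adjusted p = 0.0991). Chrne, another muscle subunit, had 7.69 and 7.76 in wild-type neural tube, against 7.84 and 7.62 in wild-type paraxial tissue, and overlapped.

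How closely the 7 kept together is described over the 8 arrays, which share embryos and scaling. The correlation of each with the mean of the other 6 was 0.98 for Slc18a3, 0.97 for Onecut1, 0.96 for Onecut2, 0.94 for Chat, 0.76 for Mnx1, 0.60 for Slc5a7 and 0.20 for Tbx20. Among 6459 genes above background on at least 4 arrays and varying enough, the 8 whose values were most like the mean of the members had correlations of 0.99 to 1.00: Olfm2, Zdhhc8, Ccdc182, Tagln3, Nova1, Pbx4 and 2 features known by identifier, LOC100046616 and ENSMUST00000060215. Tagln3, a calponin-family gene of neurons, had 14.32 and 15.29 in mutant neural tube, against 15.44 and 15.28 in wild-type neural tube, and 13.36 and 13.16 in mutant paraxial tissue, against 14.65 and 13.55 in wild-type paraxial tissue. As for the members, the first mutant array was the lowest in neural tube and the first wild-type array the highest in paraxial tissue. Tagln3 was picked for its likeness to the members on these arrays, so the shared order follows from that choice.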

How the data were processed

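RNA from laser-captured tissue was labelled with Cy5, per the labels' protocols, and arrays were read out in Agilent Feature Extraction 11.0.1.1, per the submitters' processing notes. Each deposited file gives, for 1 array, the red-channel intensity on a linear scale after the scanner software's own background correction, per the file headers. All 8 arrays lay on 1 slide, with replicate 1 arrays in row 1 and replicate 2 arrays in row 2.

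Control and outlier spots were left out, spots of a probe averaged, log2 taken, and each array shifted to a common 75th percentile. A probe was kept if any group had both of its arrays well above background (42754 probes), and each of 28940 genes was read through its brightest kept probe. A model of 4 group means was fitted with limma 3.58.1 in R 4.3.3, taking embryo as a random effect (duplicateCorrelation, estimated at 0.603), eBayes, and Benjamini-Hochberg adjustment over all genes at 0.05. The labels give the embryo, and both tissues of an embryo deviated together (r across genes 0.607 in mutants and 0.562 in wild type). In all, 6 contrasts were tested. Errors are SE of the fit, and the small number of arrays (2 per group) limits precision. For an "at least" fold, the dim group took on each array its own value or the lowest signal that passed as well above background, whichever was higher. Each such fold rests on the scanner software's background correction. The normexp alternative added an offset of 50 to every signal, which by itself shrinks log2 differences of dim probes. The part of the offset in the normexp values was not tested. Figures were drawn with matplotlib from the same values, and the fit was tested on simulated arrays.

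The members, lists, comparisons and alternatives were chosen with earlier results of these data known. Named are all 7 members, all 13 motor neuron progenitor and specification factors and up to 4 genes of each other list with its lowest p-values. The 8 genes most like the members' mean and Gmnn are also named. Isl1, Isl2, Lhx3, Lhx4, Phox2a, Chrne, Myh7, Nppa, Onecut3, Ache, Tagln3, Snap25, Nhlh1, the repeat-bearing probes and the Hox genes were picked out after their values were seen. RefSeq promoters (GRCm38.p6) were matched by symbol for 6 of 7 members.

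Alternatives were other background correction, scaling and filters, other probe rules, trended robust moderation, other treatments of embryo and slide row, the authors' table of intensity values for the series, and leaving out each array or embryo.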

Additional observations from a re-analysis of the deposited data

How the results depend on the processing

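The tissue difference kept its direction for Mnx1, Onecut1, Onecut2, Chat and Slc18a3 in each of the processing alternatives and with each array or embryo left out, while the number of members called moved. In mutants, where 4 of 7 were called, it was 1 with no filter on dim probes, 2 with replicate number (slide row) as a block, and 0 both with no embryo term and with the embryo as a fixed block. In wild type, where 1 was called, it was 2 with normexp background correction, median scaling or trended robust moderation, and 0 with no embryo term or with the embryo as a fixed block. Averaged over genotypes, where 5 were called, it was 3 when probes had to be above background on all 8 arrays (4 members then measured), 2 with no embryo term and 3 with the embryo as a fixed block. With an array or an embryo left out, the counts ran from 0 to 5 in mutants, 0 to 4 in wild type and 1 to 6 on average. The mutant effect gave 0 members in both tissues and 0 for the interaction under every alternative run. Where an embryo was left out, the embryo correlation of the full fit was used. A shared embryo number was not read as a pairing of mutant with wild type (r across genes 0.291 in both tissues).

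Small differences turned sign. With normexp, the Slc5a7 tissue difference was -0.13 in wild type and -0.026 on average, and the Chat difference between genotypes in neural tube was 0.035. The Tbx20 tissue difference in wild type was 0.0041 with quantile scaling, 0.00038 with cyclic loess and 0.097 with the mean of its probes, which also put its genotype difference in paraxial tissue at 0.19. With an array or embryo left out, the genotype difference in neural tube ran from -0.90 to 0.44 for Onecut1, -0.53 to 0.31 for Onecut2, -0.96 to 0.22 for Chat, -1.02 to 0.365 for Slc18a3 and -2.76 to 0.057 for Slc5a7. That of Tbx20 in paraxial tissue ran from -0.62 to 0.37. The tissue difference in wild type ran from -0.75 to 0.72 for Tbx20 and from -0.059 to 0.43 for Slc5a7, and that of Slc5a7 in mutants from -0.062 to 2.27. The interaction ran from -0.44 to 1.07 for Slc18a3 and from -0.25 to 2.08 for Slc5a7. The causes were not tested. Of 1018 values of single members under the alternatives, 902 kept both direction and side of the threshold, 67 lost a call, 12 gained one and 37 turned sign. Mnx1 in neural tube stayed lower in mutants throughout, from -3.85 to -1.45. Mnx1, Chat and Slc5a7 are dim, well above background on 3, 5 and 5 of the 8 arrays.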
